A study of Ovis aries with 32 samples.

Results

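The comparison set visceral fat against perirenal fat of the same adult control ewes. It used 8 of the study's 32 RNA libraries, chosen by their depot and treatment labels alone. These were the visceral and the perirenal library of each of 4 control sheep, which carry the animal numbers 98, 131, 132 and 201 and form 4 pairs. Visceral fat was mesenteric fat lying around the ventral sac of the rumen, and perirenal fat was taken from around the kidney. All sheep of the study, controls included, were ovariectomized after the second breeding season and given a steroid replacement. They received an estradiol implant of 1 cm, then 2 progesterone implants for 14 days and then 4 estradiol implants of 30 mm, and tissue was taken 18 h later. The study's other 4 sheep (48, 185, 233 and 255) were daughters of ewes given testosterone propionate from gestation day 30 to 90, in 2 injections a week of 100 mg each (1.2 mg/kg, with 2 ml corn oil). Their visceral and perirenal libraries give the same contrast in animals that share no sample with the controls. The ovariectomy and the implants limit every group as a model of the intact ewe.

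White fat forms in many places of the body, and the stromal cells of each depot keep a memory of where they arose. The best known part of it is the HOX code. HOX genes lie in 4 clusters, A to D, and are numbered along each cluster, and the genes with high numbers are switched on toward the tail end of the embryo. Perirenal fat lies at the back of the body wall beside the kidney and can hold brown fat cells in young lambs, whereas mesenteric fat grows in the tissue that hangs the gut from the body wall. The samples were frozen pieces of whole fat, which hold adipocytes, stromal cells, vessels, nerves and immune cells, so fewer cells of a type and less RNA per cell cannot be told apart.

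Reads came from the 3' ends of transcripts, and levels are given as CPM, read counts scaled to library size with edgeR's TMM factors. In each list of 4 values the sheep follow the order 98, 131, 132, 201. Total counts ran from 6093513 to 7980969 in visceral and from 5048842 to 8267824 in perirenal libraries. A gene with no count in 4 libraries could lie at up to 0.113 CPM in visceral and 0.116 CPM in perirenal fat, counting 3 reads as the floor and covering counting error only. Of 28524 genes in the count table, 8219 had no count in these 8 libraries and 12866 were tested. Differences are log2 fold changes of visceral over perirenal fat, so that a positive value means higher in visceral fat. A gene is called when its p from edgeR's quasi-likelihood test with the sheep as a block, adjusted by Benjamini-Hochberg over all genes tested, lies below 0.05.

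Both depots carried the markers of mature fat. The 12 adipocyte markers summed to 33600 to 56400 CPM in visceral and 29500 to 45600 CPM in perirenal libraries. Of the 12, 0 were called, beside 1.40% of all genes tested. In a repeat of the fit without sheep 98, 1 of the 12 was called, higher in perirenal fat, beside 1.22% of all genes. Adiponectin (ADIPOQ), a hormone of fat cells, stood at 9002, 13580, 20110 and 15250 CPM in visceral and 7544, 14710, 10240 and 6333 CPM in perirenal fat, and leptin (LEP) at 414 ± 119 and 396 ± 239 CPM (SD, n = 4). Neither was called, with edgeR adjusted p of 0.257 and 0.617. The summed levels of tissues that lie next to the depots were as follows. The 15 rumen and gut epithelium markers in the table summed to 4.6 to 14.4 CPM in visceral and 5.15 to 9.17 CPM in perirenal libraries, with 6 of them at 0 in all 8. The 19 kidney epithelium markers summed to 5 to 12.1 and 4.84 to 9.4 CPM, with 8 at 0. The 16 adrenal gland markers summed to 131 to 171 CPM in visceral and 167 to 245 CPM in perirenal libraries. Nearly all of this was FDX1, a ferredoxin made in many tissues, at 118 to 161 and 150 to 228 CPM, while the steroid enzyme CYP11A1 and the factor NR5A1 were at 0 in all 8. The 12 enteric muscle and interstitial cell markers summed to 154 to 181 and 167 to 262 CPM, most of it from SYNM, a muscle filament protein. None of the tested members of these lists was called by edgeR, and the part of neighbouring tissue in the results was not tested.

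1 visceral library lay between the depots in the median over the genes that separate them. For each sheep, the genes called at 2-fold or more in the fit on the other 3 sheep were used to place its libraries on a scale from 0 (the other sheep's perirenal mean) to 100 (their visceral mean). The visceral libraries of sheep 98, 131 and 201 stood at 104, 99.2 and 92.7, but that of sheep 132 stood at 51, over 245 genes. Its shortfall was larger in genes of visceral fat, where it reached 26.2, than in genes of perirenal fat, where it reached 77.8. The 4 perirenal libraries stood at 18.2, 19.7, 12.1 and 9.19. Earlier work on these data had raised the possibility that the perirenal library of sheep 98 holds some visceral fat, but on this scale it lay within the range of the others. The fits were repeated without each sheep, and values without a sheep are given beside a result where its call was lost or its size moved by over 1.5-fold, and without sheep 98 for the genes with the most detail.

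**Figure D1:**
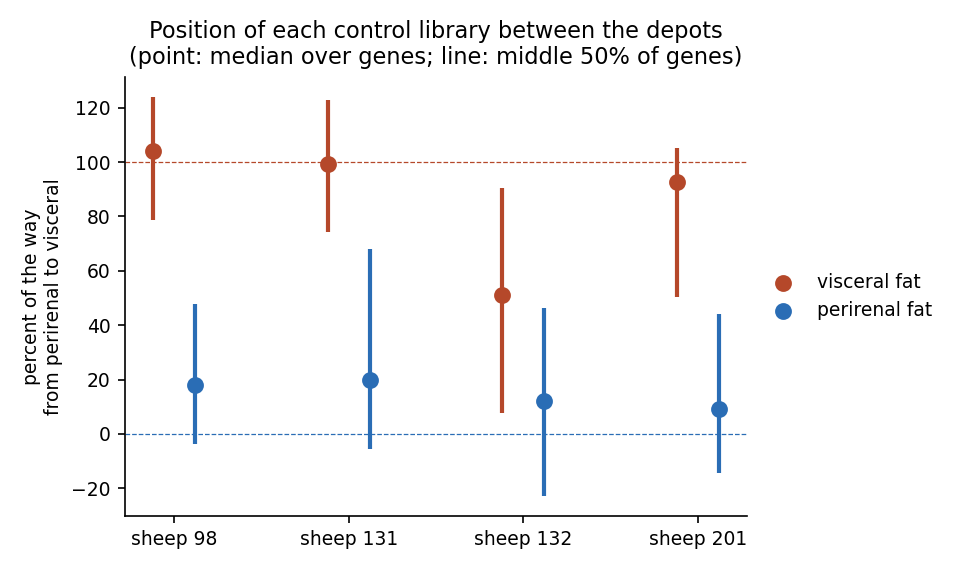
Position of each control library between the depots (y axis, percent of the way from the perirenal to the visceral mean of the other 3 sheep; x axis, sheep), with points for the median over genes and lines for the middle 50% of genes. The visceral library of sheep 132 sits at 51, the other visceral libraries at 92.7 to 104 and the perirenal libraries at 9.19 to 19.7.

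The depots differed in few genes, and about evenly in both directions. Of the 12866 genes tested, 180 (1.40%) were called. Of these, 88 (0.684%) were higher in visceral and 92 (0.715%) higher in perirenal fat. The difference was at least 2-fold for 55 and 57 of them and at least 4-fold for 16 and 24. In 177 of the 180 all 4 pairs moved the same way, and in 115 the 4 visceral and 4 perirenal values did not overlap, against 634 (4.93%) of all genes tested, of which 283 (2.20%) had visceral and 351 (2.73%) perirenal fat above. The called genes include 25 locus numbers with no symbol. Without sheep 98, 156 of 12737 genes (1.22%) were called, 72 (0.565%) higher in visceral and 84 (0.659%) in perirenal fat. Of these, 123 were among the 180, and all 178 of the 180 that could be tested had the same direction. The count was 165 without sheep 131, 694 without sheep 132 and 92 without sheep 201, with 89 and 76, 302 and 392, and 50 and 42 higher in visceral and perirenal fat. In all 4 of these fits 65 of the 180 were called. Counts of called members in the lists below stand beside the 1.40% of all genes called in the main fit.

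The clearest difference lay in the posterior HOX genes, of which HOXA9, HOXA10 and HOXC10 were near 0 in visceral and plainly present in perirenal fat. HOX genes are transcription factors that mark position along the body axis. HOXA9 stood at 0.139, 0, 0.266 and 0 CPM in visceral and 30.8, 49.3, 43.9 and 50.6 CPM in perirenal fat. The 8 values fell into separate ranges in all 4 sheep, with 3 reads in total in visceral against 1115 in perirenal libraries, a ratio of 384 (exact 95% interval for counting error 131 to 1860). The fitted log2 fold change of -8.35 (SE 0.39, edgeR adjusted p = 5.92e-08) became -8.61 without sheep 98 and -9.21 without sheep 132. HOXA10 stood at 0.278, 0, 0 and 0 CPM against 19.7, 32.6, 23.2 and 16.4 CPM, which is 2 reads against 602 and a ratio of 311 (95% interval 85.6 to 2570, edgeR adjusted p = 1.29e-06). Both visceral reads came from sheep 98, and without it HOXA10 was at least 159-fold higher in perirenal fat. HOXC10 had no read in the 4 visceral libraries and stood at 6.76, 11.7, 7.73 and 12.4 CPM in perirenal fat. Against the floor it was at least 83.3-fold higher in perirenal fat (edgeR adjusted p = 5.97e-05), and at least 66.6-fold without sheep 98.

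HOXC9 was low rather than absent in visceral fat, at 4.86, 6.08, 3.06 and 10.1 CPM, and stood at 92.9, 109, 81.6 and 130 CPM in perirenal fat. The lowest perirenal value was above the highest visceral value, at a fitted difference of -4.17 on the log2 scale (SE 0.20, edgeR adjusted p = 5.92e-08; -4.14 without sheep 98). HOXD9 followed at 3.22 against 10.5 CPM on average (log2 fold change -1.71, SE 0.32, edgeR adjusted p = 0.0189; 0.154 without sheep 201). HOXB9, at 2.64 and 2.67 CPM, was the only one of the 6 tested genes of groups 9 to 13 that was not called. The median of these 6 was -6.04, or -5.27 with HOXC10 set at its bound, beside a median of 0.02 over all genes tested. Another 10 genes of these groups were in the table but held too few reads to be tested, 6 of them at 0 in all 8 libraries. HOXA9 and HOXA10 lie side by side in a cluster whose transcripts overlap, and with the strand setting of the counting unknown here, reads may have been shared between such neighbours.

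Among the HOX genes of groups 1 to 8 the direction changed with the number and with the cluster. Of 17 tested, 2 were higher in visceral and 5 higher in perirenal fat, with a median of 0.18. HOXA3 stood at 66.1, 53.7, 71.1 and 57.7 CPM in visceral against 28.3, 27.5, 36.7 and 36 CPM in perirenal fat (log2 fold change 0.97, SE 0.15, edgeR adjusted p = 0.00554). HOXB5 stood at 12.2, 11.5, 14.4 and 10.8 against 3.01, 3.59, 6.18 and 4.6 CPM (log2 fold change 1.52, SE 0.25, adjusted p = 0.00638). For both, every visceral library was above every perirenal library.

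The perirenal side held HOXA6, HOXC6, HOXC8, HOXD3 and HOXD8. HOXC6 had the tightest groups, at 94, 97.2, 96.9 and 97.7 CPM in visceral and 228, 218, 199 and 229 CPM in perirenal fat. The change was -1.17 on the log2 scale (SE 0.13, edgeR adjusted p = 0.000244; -1.14 without sheep 98). HOXC8 stood at 15.8 ± 1.72 against 73.8 ± 16.8 CPM (SD, n = 4), HOXD8 at 10.6 ± 1.53 against 47.2 ± 5, HOXA6 at 14.4 ± 0.985 against 47.1 ± 16.9 and HOXD3 at 2.92 ± 1.32 against 10.8 ± 1.76 CPM. In all 5 the groups were separate. HOXD3 missed the threshold without sheep 201 (adjusted p = 0.102), while the other 4 and the posterior genes HOXA9, HOXA10, HOXC9 and HOXC10 stayed called in every fit without a sheep.

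By cluster, 3 of 8 tested HOXA genes, 0 of 6 HOXB, 4 of 6 HOXC and 3 of 3 HOXD genes were higher in perirenal fat, and the 2 genes higher in visceral fat were HOXA3 and HOXB5. HOXB genes that missed the threshold stood at log2 fold changes of 0.79 for HOXB2, 0.87 for HOXB6, 0.52 for HOXB8 and -0.34 for HOXB7. Within HOXA the values ran from 0.72 for HOXA2, 0.97 for HOXA3 and 0.67 for HOXA4 to -1.65 for HOXA6, -0.73 for HOXA7 (adjusted p = 0.0580), -8.35 for HOXA9 and -7.92 for HOXA10. The plot of HOX genes by number shows the same change from above 0 to far below it along the A cluster. The C cluster ran from near 0, at 0.07 for HOXC4 (SE 0.24) and 0.18 for HOXC5 (SE 0.29), to far below it. The B cluster lay near or above 0.

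**Figure D2:**
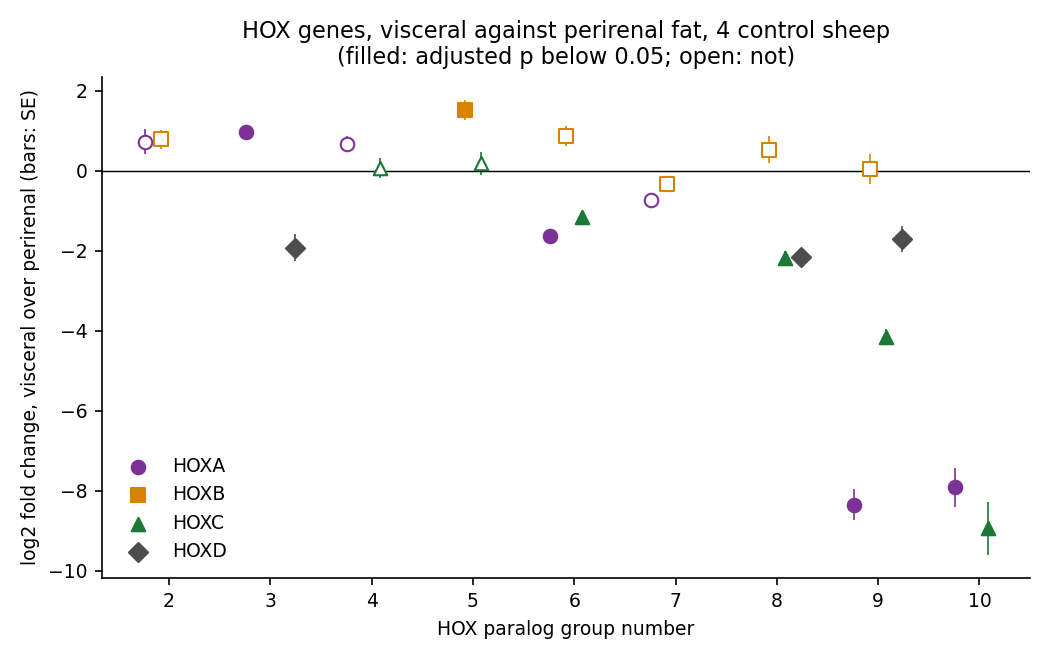
Log2 fold change of visceral over perirenal fat (y axis, bars give the SE) for tested HOX genes of groups 2 to 10 by paralog group number (x axis), with clusters in different colours and shapes, filled where edgeR's adjusted p was below 0.05. The lowest points are HOXA9, HOXA10 and HOXC10 at -7.92 to -8.95, where the fitted size rests on visceral levels at or near 0.

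Other regulators of regional mesoderm also differed. Of 29 tested, 3 were higher in visceral and 5 in perirenal fat, with a median of 0.13 that turned to -0.07 without sheep 98 and -0.04 without sheep 131. The strongest was FOXD1, a transcription factor of the kidney stroma, at 0.694, 0.986, 0.399 and 0.171 CPM in visceral and 18.6, 22.2, 25.6 and 18 CPM in perirenal fat. The ranges lay far apart in all 4 pairs (log2 fold change -5.19, SE 0.34, edgeR adjusted p = 1.55e-06; -5.39 without sheep 98).

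The homeobox gene IRX3, known from work on fat and limb patterning, stood at 16.7, 16.3, 10.1 and 22.4 CPM in visceral and 65.4, 43.5, 48.7 and 75.4 CPM in perirenal fat, with no overlap (log2 fold change -1.84, SE 0.18, adjusted p = 7.11e-05; -1.81 without sheep 98). SHOX2, a homeobox gene of limb and heart pacemaker tissue, stood at 6.88 ± 1.82 against 23.2 ± 7.66 CPM (log2 fold change -1.71, adjusted p = 0.00638; -1.36 without sheep 98), and FOXC1, a forkhead factor of mesoderm, at 13.5 ± 1.54 against 26.6 ± 4.42 CPM (log2 fold change -0.97, adjusted p = 0.0141). TBX18, a T-box factor of ureter and vessel wall stroma, was the fifth, at -0.76 (edgeR adjusted p = 0.0389). Without sheep 201 the calls of SHOX2, FOXC1 and TBX18 were lost, at adjusted p of 0.0797, 0.107 and 0.154, and that of TBX18 also without sheep 131 (0.147).

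On the visceral side, HAND2, a factor of the lateral plate mesoderm that gives the heart and the gut wall, stood at 4.58, 2.46, 2.13 and 1.54 CPM. In perirenal fat it was at 0, 0, 0 and 0.6 CPM, so that only sheep 201 had reads there. That is 73 reads against 3, a ratio of 23.6 (exact 95% interval for counting error 7.75 to 117, edgeR adjusted p = 0.0177). The fitted log2 fold change of HAND2 was 4.28, and 7.4 without sheep 201, where no perirenal read was left. BARX1, a homeobox gene of stomach mesenchyme, stood at 2.5, 3.94, 7.85 and 3.93 CPM against 0.751, 0.624, 0.773 and 0.8 CPM, and its visceral values were highest in sheep 132 (log2 fold change 2.56, SE 0.40, adjusted p = 0.00426). EMX2, a homeobox gene of the urogenital ridge, was just inside the threshold at 1.08 (adjusted p = 0.0498) and outside it without sheep 98 (adjusted p = 0.0982) or 201 (0.273). Its groups overlapped. ISL1, a factor of heart and gut mesoderm, had too few reads to be tested and stood at 3.75, 3.29, 0.931 and 1.03 CPM in visceral and 0, 0, 0 and 0.2 CPM in perirenal fat.

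Regulators known from fat inside the body cavity were present in both depots. WT1, a factor of mesothelium and visceral fat stroma, stood at 110 ± 32.9 in visceral and 78.7 ± 26.7 CPM in perirenal fat (adjusted p = 0.421), and TCF21, a factor of visceral and epicardial mesenchyme, at 15.5 ± 2.76 and 18.6 ± 5.94 CPM (adjusted p = 0.648). In subcutaneous control libraries WT1 was at 1.36 ± 1.06 CPM and TCF21 was at 0 in all 4. TBX15, a regulator of subcutaneous fat, was at most 1.53 CPM in visceral and at most 0.15 CPM in perirenal libraries and was not tested.

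The other 2 control depots give a scale for the positional genes. HOXC10 stood at 0.186 ± 0.232 CPM in subcutaneous and at 0 in epicardial fat, and HOXA10 at 7.64 ± 4.44 and 0.0945 ± 0.11 CPM (SD, n = 4 each). BARX1 stood at 0.524 ± 0.451 and 0.175 ± 0.134 CPM there, and SLIT2, described below, at 2.69 ± 1.67 and 32.4 ± 8.14 CPM. HOXA3 and HOXB5 were also below their visceral means, at 46.1 and 6.78 CPM in subcutaneous and 11 and 0.047 CPM in epicardial fat. HAND2 stood at 3.68 ± 0.996 and 17.4 ± 7.34 CPM there, both above its visceral mean of 2.68 CPM. RSPO3, also described below, stood at 157 ± 59.2 CPM in subcutaneous fat, above its visceral mean of 115 CPM. Other genes of the perirenal side had subcutaneous means near or above their perirenal ones. In subcutaneous fat HOXA9 stood at 46.1 ± 15.3, HOXC8 at 75.3 ± 10.4, HOXC6 at 211 ± 13.9, IRX3 at 95.5 ± 24.4 and SHOX2 at 49.7 ± 3 CPM. These levels were not part of the test of visceral against perirenal fat.

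Among genes with a symbol, a mean of at least 10 CPM in visceral fat and no overlap between the groups, ANKRD1, NRN1, FAM84A and BRINP1 had the largest increases there. NRN1, neuritin, a small secreted protein that promotes neurite growth, stood at 9.58, 10.8, 15.3 and 8.54 CPM in visceral against 0.301, 1.4, 0.515 and 1 CPM in perirenal fat (log2 fold change 3.83, SE 0.39, edgeR adjusted p = 0.000120; 3.59 without sheep 98). The lowest visceral library lay far above the highest perirenal one. ANKRD1, a stress-induced ankyrin protein of heart and skeletal muscle, stood at 32.1, 8.21, 2.26 and 15.2 CPM against 0.751, 0.78, 0.387 and 0.4 CPM (log2 fold change 4.36, SE 0.43, adjusted p = 0.000118; 3.75 without sheep 98). Its visceral values spread widely, with sheep 98 highest and sheep 132 lowest, and no perirenal value reached them. The 19 muscle markers in the table, ANKRD1 included, summed to 64, 14, 8.38 and 20.3 CPM in visceral and 4.36 to 11.9 CPM in perirenal libraries, with MYOD1 and TNNT1 at 0 in all 8. TTN was at 14.9 CPM in the visceral library of sheep 98 and at 2 to 3.07 CPM in the other visceral libraries. The part of muscle RNA in the ANKRD1 difference was not tested.

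FAM84A stood at 7.22, 26.4, 30.9 and 65.8 CPM against 2.86, 7.02, 2.96 and 2.6 CPM (log2 fold change 2.82, SE 0.45, edgeR adjusted p = 0.0192), and its call was lost without sheep 132 (adjusted p = 0.222). BRINP1, a protein of nerve cells, stood at 11.7 ± 2.53 against 2.84 ± 2.37 CPM (log2 fold change 2.27, adjusted p = 0.0158; 0.0956 without sheep 201). DSC2, a desmosomal cadherin, stood at 18.2 ± 5.81 against 5.74 ± 3.09 CPM (log2 fold change 1.80, adjusted p = 0.00286). In these 3 genes no perirenal library reached the lowest visceral one.

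Signals that act on progenitor cells were among the genes higher in visceral fat. RSPO3, an R-spondin that strengthens Wnt signalling and is known for its link to fat distribution in people, stood at 143, 100, 82.6 and 136 CPM in visceral and 72.7, 15.8, 28.5 and 21.8 CPM in perirenal fat. The perirenal library of sheep 98 was the highest of its group, and the log2 fold change rose from 1.93 (SE 0.28, edgeR adjusted p = 0.00897) to 2.27 without that sheep. Without sheep 132 the adjusted p was 0.0591. DKK2, a secreted Wnt antagonist, went the other way, at 1.02 ± 0.728 against 4.36 ± 0.518 CPM (log2 fold change -2.14, adjusted p = 0.0158; 0.107 without sheep 201). These were the only 2 of 34 tested Wnt pathway genes that were called, and the list's median was 0.04.

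FGF7, a growth factor made by stromal cells, stood at 32.8, 82, 63.1 and 38.3 CPM in visceral and 12.8, 26.4, 28.3 and 11 CPM in perirenal fat (log2 fold change 1.48, SE 0.17, edgeR adjusted p = 0.000322). Both depots were high in sheep 131 and 132 and low in sheep 98 and 201, and the groups did not overlap. BMP2, a bone morphogenetic protein that commits progenitors to the fat lineage, stood at 27.7 ± 4.64 against 12.7 ± 2.57 CPM (log2 fold change 1.13, adjusted p = 0.00426). It was the only 1 of 38 tested TGF-beta, BMP and activin genes to be called. DLK1, an imprinted inhibitor of fat cell formation, stood at 0.278, 0.164, 4.13 and 0.512 CPM in visceral and 3.46, 0.156, 29.4 and 10 CPM in perirenal fat (log2 fold change -3.16, SE 0.40, adjusted p = 0.000830). It was near 0 in both depots of sheep 131 and highest in both depots of sheep 132. PEG3, another imprinted gene, stood at 77.4 ± 33.2 against 153 ± 42.9 CPM (log2 fold change -1.04, adjusted p = 0.00194), and the other 11 of the 13 tested imprinted genes were not called.

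Of 22 tested retinoid genes 1 was higher in visceral and 1 higher in perirenal fat. ALDH1A1, a retinaldehyde dehydrogenase of white fat, stood at 1939, 1740, 1078 and 1670 CPM in visceral and 1090, 682, 556 and 495 CPM in perirenal fat (log2 fold change 1.23, SE 0.17, edgeR adjusted p = 0.00199). ALDH1A3, which does the same reaction, stood at 77.7, 34.5, 52.4 and 37.9 CPM against 93.8, 57.2, 106 and 68.4 CPM (log2 fold change -0.71, SE 0.16, adjusted p = 0.0465). All 4 pairs moved the same way for each gene, although the groups overlapped. The call of ALDH1A3 was lost without sheep 131 (adjusted p = 0.119) or 201 (0.221).

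Guidance cues, which steer axons, vessels and migrating cells, gave 4 calls among 46 tested, all higher in visceral fat, although the list's median was -0.12. SLIT2, a secreted repellent of the ROBO receptors, stood at 54.8, 62.1, 68 and 44.6 CPM in visceral and 20.1, 19.3, 26.9 and 20.8 CPM in perirenal fat (log2 fold change 1.40, SE 0.16, edgeR adjusted p = 0.000336; 1.38 without sheep 98). The groups were well apart and the call held in every fit without a sheep. NTN4, a netrin of basement membranes, stood at 82.3 ± 27 against 39.4 ± 14.8 CPM (log2 fold change 1.09, adjusted p = 0.00252). The semaphorins SEMA3C and SEMA3D stood at log2 fold changes of 0.95 (adjusted p = 0.00644) and 0.76 (adjusted p = 0.0260), the latter lost without sheep 131 (adjusted p = 0.146) or 201 (0.0516). SEMA3C varied more between sheep than between depots, at 37.2, 125, 71.9 and 30.1 CPM against 16.8, 61, 37 and 19.8 CPM, so that the visceral value was the higher one in each sheep while the groups overlapped.

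**Figure D3:**
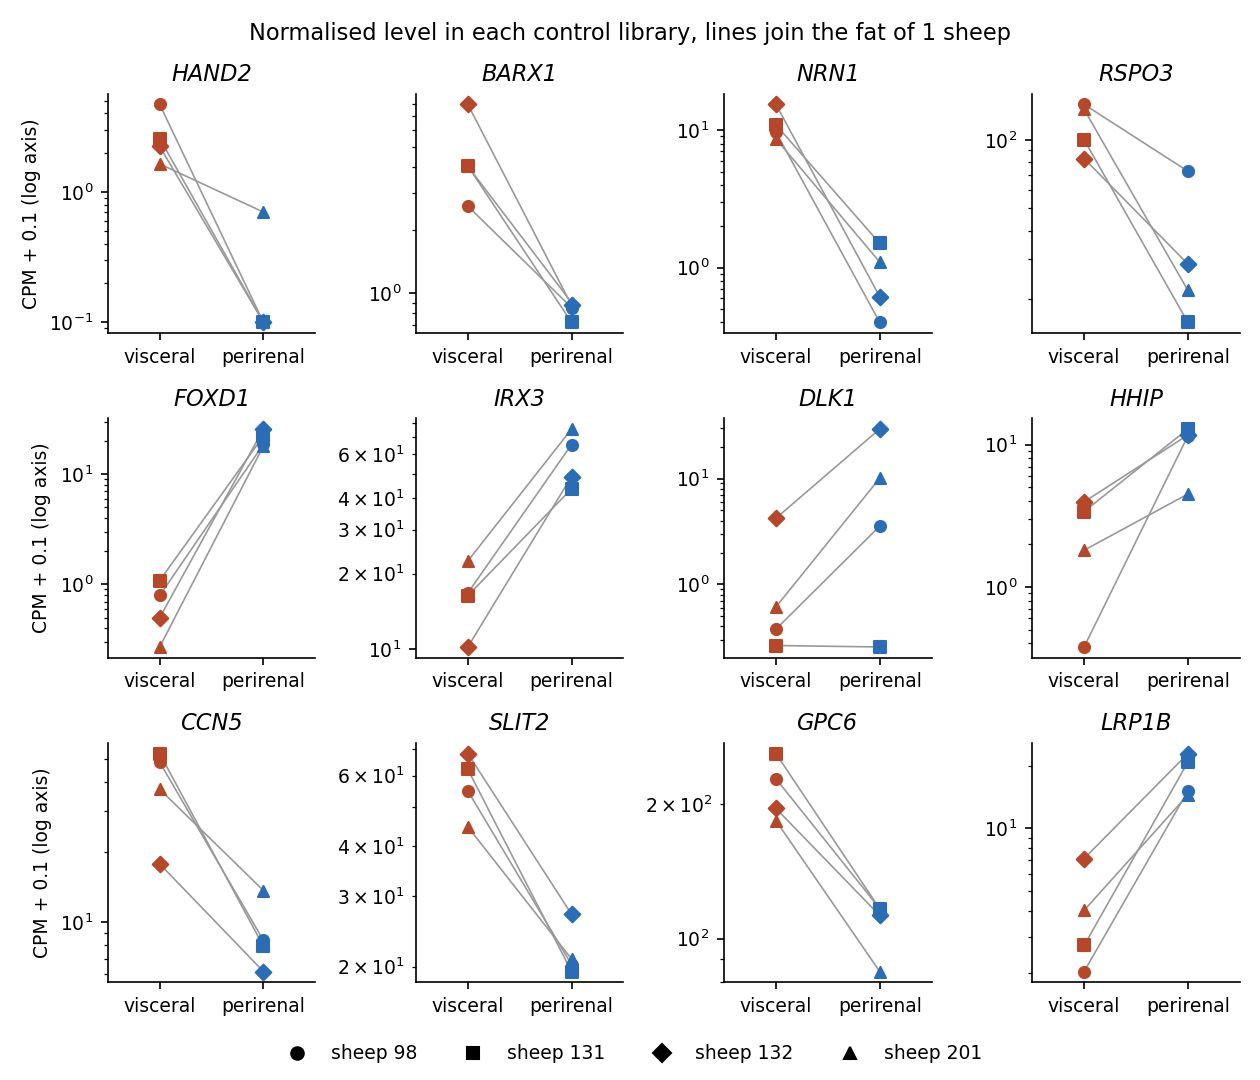
Level of 12 genes in each control library (y axis, CPM + 0.1 on a log axis; x axis, depot), with lines joining both depots of 1 sheep. HAND2, BARX1, NRN1, RSPO3, CCN5, SLIT2 and GPC6 fall from visceral to perirenal fat in all 4 sheep, FOXD1, IRX3, HHIP and LRP1B rise in all 4, and DLK1 rises in 3 and stays near 0 in sheep 131.

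Matrix genes differed in both directions. Of 53 tested matrix and matricellular genes other than collagens, 4 were higher in visceral and 2 in perirenal fat, with a median of 0.06. CCN5, a matricellular protein that holds back smooth muscle growth, stood at 48.4, 52.7, 17.7 and 37.1 CPM in visceral and 8.26, 7.8, 6.06 and 13.6 CPM in perirenal fat. The visceral library of sheep 132 was the lowest of its group but still above all perirenal ones (log2 fold change 2.09, SE 0.24, edgeR adjusted p = 0.000427). The thrombospondins THBS2 and THBS1, which restrain vessel growth and bind TGF-beta, stood at 201 ± 79.1 against 70.7 ± 25.9 CPM and 266 ± 34.8 against 156 ± 25 CPM. Their log2 fold changes were 1.54 (adjusted p = 0.00101) and 0.78 (adjusted p = 0.0154; 0.106 without sheep 201). PCOLCE2, an enhancer of procollagen processing, stood at 283, 240, 389 and 282 CPM against 99.6, 113, 177 and 125 CPM (log2 fold change 1.24, SE 0.14, adjusted p = 0.000244), with every visceral library above every perirenal one.

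GPC6, a glypican of the cell surface, stood at 228, 259, 195 and 183 CPM in visceral and 117, 117, 113 and 84.4 CPM in perirenal fat (log2 fold change 1.01, SE 0.13, edgeR adjusted p = 0.000949; 1.02 without sheep 98). COL8A1, a short-chain collagen of vessel walls, was the only 1 of 25 tested collagen chains to be called. It stood at 947, 885, 213 and 441 CPM against 599, 320, 85.5 and 120 CPM (log2 fold change 1.34, SE 0.18, adjusted p = 0.00158; 1.56 without sheep 98), so that it was higher in visceral fat of each sheep although sheep 132 had less in visceral fat than sheep 98 and 131 had in perirenal fat. On the perirenal side, LAMA2, a laminin chain of muscle and nerve basement membranes, stood at 81.5, 104, 91.8 and 73.4 CPM against 156, 180, 176 and 146 CPM (log2 fold change -0.91, SE 0.13, adjusted p = 0.00199). MGP, an inhibitor of calcification, stood at 931, 1245, 906 and 966 CPM against 1605, 4149, 1354 and 1760 CPM. Its perirenal mean rests partly on sheep 131, without which the adjusted p was 0.113 and the log2 fold change -0.73 in place of -0.98, and without sheep 201 the adjusted p was 0.113.

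**Figure D4:**
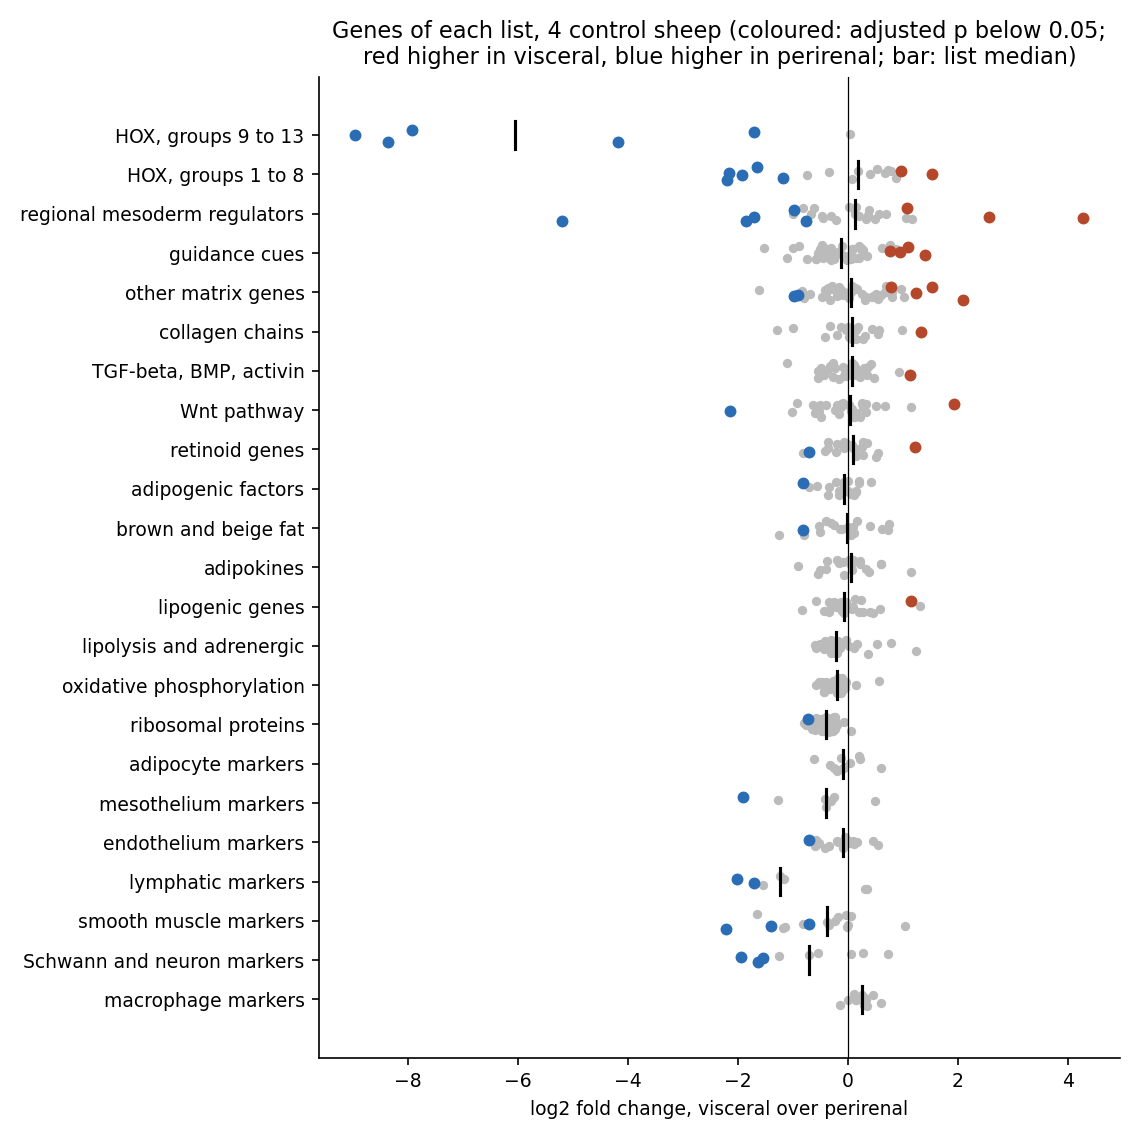
Log2 fold change of visceral over perirenal fat (x axis) for the tested genes of 23 lists (y axis), with a black bar at each list's median and coloured points where edgeR's adjusted p was below 0.05. The posterior HOX list has its median at -6.04, the medians of the metabolic lists shown lie between -0.22 and 0.06, and the ribosomal list lies at -0.40.

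Few genes of fuel metabolism were called. Of 32 tested lipogenic genes only THRSP, which drives fatty acid synthesis, was called, at 45.1, 215, 150 and 61.5 CPM in visceral and 24.5, 131, 33.8 and 34.4 CPM in perirenal fat (log2 fold change 1.15, SE 0.22, edgeR adjusted p = 0.0280). The call was lost without sheep 98 (adjusted p = 0.0795) or 201 (0.0792). None of 24 fatty acid uptake, 29 lipolysis, 30 fatty acid oxidation, 30 oxidative phosphorylation, 34 insulin signalling and glucose, 15 IGF or 22 adipokine genes was called by this test, against 1.40% of all genes, and their medians lay between -0.22 and 0.06. Without sheep 98, 1 fatty acid uptake gene was called higher in perirenal fat, beside 1.22% of all genes. In that fit 1 lipolysis and 1 adipokine gene were called higher in visceral fat. Without sheep 132 each of these lists except fatty acid uptake held 1 to 4 called members, beside 5.41% of all genes.

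Brown fat genes gave a single call. EBF2, a factor that marks brown and beige precursors and is also counted among the 23 tested adipogenic factors, stood at 110, 98.2, 171 and 112 CPM in visceral and 240, 182, 292 and 155 CPM in perirenal fat (log2 fold change -0.81, SE 0.14, edgeR adjusted p = 0.0100). It was higher in perirenal fat of all 4 sheep, although the visceral value of sheep 132 exceeded the perirenal value of sheep 201. The other 20 of 21 tested brown and beige genes were not called. UCP1, the uncoupling protein of brown fat, was at most 0.665 CPM in any of the 8 libraries and was not tested. LHX8, a homeobox gene known as a brown fat marker in mice, was also not tested; it had no read in visceral fat and stood at 2.4, 5.62, 6.44 and 0.4 CPM in perirenal fat.

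Enzymes and receptors with high levels moved singly. EPHX2, soluble epoxide hydrolase, stood at 312, 446, 558 and 569 CPM in visceral and 308, 222, 256 and 274 CPM in perirenal fat (log2 fold change 0.81, SE 0.18, edgeR adjusted p = 0.0465). Sheep 98 showed almost no difference, and without it the value was 1.06 (adjusted p = 0.000545), while without sheep 131 or 201 the adjusted p was 0.117 or 0.254. PTGER4, a prostaglandin E2 receptor, stood at 234 ± 29.8 against 151 ± 36.8 CPM (log2 fold change 0.67, adjusted p = 0.0248; 0.158 without sheep 131 and 0.0691 without sheep 201). GNAI1, an inhibitory G protein subunit, stood at 261 ± 13 against 173 ± 34.1 CPM (log2 fold change 0.62, adjusted p = 0.0498), and its adjusted p was 0.0848 to 0.250 without sheep 98, 131 or 201.

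Stress and signalling lists gave few calls. TSC22D3, a glucocorticoid-induced repressor, was the only 1 of 20 steroid-related genes called, at 243, 582, 182 and 508 CPM in visceral and 163, 421, 125 and 186 CPM in perirenal fat (log2 fold change 0.76, edgeR adjusted p = 0.0453; 0.0547 without sheep 98 and 0.188 without sheep 201). The immediate early genes IER2 and IER3 were lower in visceral fat, at log2 fold changes of -0.70 and -0.77 (adjusted p = 0.0220 and 0.0498), out of 24 tested. IER2 was lost without sheep 131 (0.0626) or 201 (0.138), and IER3 without sheep 98 (0.214), 131 (0.0569) or 201 (0.216). HSPA2, a heat shock protein, stood at -0.72 (adjusted p = 0.0442), 1 of 37 chaperone and ER stress genes, and its call was lost without sheep 98 (0.185), 131 (0.0575) or 201 (0.110).

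Markers of smooth muscle, nerve and lymphatic vessels gave a few calls each, all on the perirenal side, beside 1.40% of all genes tested. The summed levels of each list overlapped between the depots. In the fit with no block for the sheep 0 of these 3 lists' members were called. Of 17 tested smooth muscle and pericyte markers, MYH11, ACTA2 and HHIP were called, 0 of them higher in visceral fat, with a list median of -0.38. MYH11, the smooth muscle myosin, stood at 12.6, 53.4, 17.7 and 30.1 CPM in visceral and 44.5, 155, 32.9 and 76.2 CPM in perirenal fat (log2 fold change -1.39, SE 0.17, edgeR adjusted p = 0.000635; -1.27 without sheep 98). Sheep 131 was highest in both depots, and every sheep had more in perirenal fat. ACTA2, smooth muscle actin, stood at 172, 394, 123 and 110 CPM against 252, 700, 176 and 215 CPM (log2 fold change -0.71, adjusted p = 0.0213; 0.0910 without sheep 131 and 0.133 without sheep 201). HHIP, a hedgehog-binding protein, stood at 0.278, 3.29, 3.86 and 1.71 CPM against 11.4, 12.8, 11.6 and 4.4 CPM (log2 fold change -2.21, adjusted p = 0.0389). It stood at -1.66 without sheep 98, and its adjusted p was 0.0792 without sheep 201. The 18 markers in the table summed to 3190 to 4940 CPM in visceral and 2570 to 6100 CPM in perirenal libraries, so that the sums overlapped, and none was at 0 throughout; the part of vessel content in these calls was not tested. Without sheep 132, 6 of the list were called.

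Of 9 tested Schwann cell and neuron markers 3 were higher in perirenal fat and 0 in visceral fat. CDH19, a cadherin of Schwann cell precursors, was among them at 3.72 ± 1.88 against 11.7 ± 5.95 CPM (SD, n = 4; log2 fold change -1.64, edgeR adjusted p = 0.00328). The 23 markers in the table summed to 602 to 914 CPM in visceral and 435 to 1016 CPM in perirenal fat, most of it from S100B, which fat cells also make, and DBH and NPY of sympathetic neurons were at 0 in all 8. The part of nerve content was not tested.

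Of 7 tested lymphatic markers 2 were higher in perirenal fat, with a median of -1.23. RELN, reelin, which lymphatic endothelium secretes, stood at 2.5, 3.12, 5.06 and 3.07 CPM in visceral and 24, 5.62, 14.9 and 15.8 CPM in perirenal fat (log2 fold change -2.02, SE 0.34, edgeR adjusted p = 0.00847; -1.61 without sheep 98, and adjusted p = 0.0971 without sheep 201), with the perirenal library of sheep 131 closest to the visceral ones. FLT4, the receptor of lymphatic growth factors, stood at 1.47 ± 0.667 against 4.82 ± 1.39 CPM (adjusted p = 0.0442; 0.106 without sheep 98 and 0.227 without sheep 201). PROX1, the defining factor of lymphatic cells, stood at 0.972, 2.79, 1.6 and 2.73 CPM against 6.76, 0.936, 4.64 and 7 CPM and was not called (adjusted p = 0.363). The 8 markers summed to 123 to 170 CPM in visceral and 97.2 to 249 CPM in perirenal libraries, sheep 131 having the lowest perirenal sum, and none was at 0 throughout.

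Among the vascular endothelium markers 1 of 19, the factor ERG, was called, at 60.9 ± 8.56 against 101 ± 17.7 CPM (log2 fold change -0.71, edgeR adjusted p = 0.0379; 0.0590 to 0.1002 without sheep 98, 131 or 201). Among the mesothelium markers 1 of 7 was called. This was PRG4, lubricin, at 5.27, 3.29, 15.7 and 4.27 CPM in visceral and 34.1, 8.58, 48.1 and 15.8 CPM in perirenal fat (log2 fold change -1.91, SE 0.24, adjusted p = 0.000635). Both depots were high in sheep 132, and MSLN and CALB2, defining markers of mesothelium, were at most 0.164 CPM in the 8 libraries. The 15 mesothelium markers in the table, WT1 included, summed to 179 to 282 CPM in visceral libraries. In perirenal libraries the sums were 179 to 287 CPM, and the part of mesothelium was not tested. None of the tested macrophage (14), T and NK cell (10), B and plasma cell (5), neutrophil and mast cell (4) or cell cycle (8) markers was called by this test, beside 1.40% of all genes tested. The 12 neutrophil and mast cell markers in the table still summed to 30.7 to 50.9 CPM in visceral and 59.6 to 92.6 CPM in perirenal libraries, with no overlap. The median log2 fold change of the 4 tested was -0.865, and the part of these cells was not tested. Of 31 cytokine and chemokine genes, ACKR3, a scavenging chemokine receptor, was higher in visceral fat (log2 fold change 1.07, adjusted p = 0.0465; 0.154 without sheep 98 and 0.221 without sheep 201). CCL14, a chemokine of vessel walls, was higher in perirenal fat at 313 ± 55.6 against 550 ± 56.2 CPM (log2 fold change -0.82, adjusted p = 0.0121; 0.0527 without sheep 201). Of 25 complement and coagulation genes, THBD, thrombomodulin, was higher in visceral fat (log2 fold change 0.75, adjusted p = 0.0351; 0.0982 without sheep 98 and 0.113 without sheep 131).

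Large differences on the perirenal side also came from genes outside these lists. LRP1B, a large receptor of the LDL receptor family, stood at 1.94, 2.63, 7.05 and 3.93 CPM in visceral and 15, 20.7, 22.8 and 14.4 CPM in perirenal fat (log2 fold change -2.30, SE 0.27, edgeR adjusted p = 0.000464; -2.12 without sheep 98). The groups did not overlap and the call held in every fit without a sheep. SBSPON, a secreted thrombospondin-type protein, stood at 2.49 ± 1.16 against 10.4 ± 3.13 CPM (log2 fold change -2.06, adjusted p = 0.00802; 0.0951 without sheep 201).

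Ribosomal protein genes were shifted toward perirenal fat as a group, although 1 of 65 was called. Their counts summed to 61720, 69620, 80940 and 64910 CPM in visceral and 104600, 88000, 91540 and 89120 CPM in perirenal libraries, with no overlap. The median log2 fold change was -0.40, 64 of the 65 lay below 0, and 26 had all perirenal values above all visceral ones, against 2.73% of all genes tested. RPL10 was the called member, at 169 ± 41.7 against 277 ± 31.2 CPM (log2 fold change -0.73, edgeR adjusted p = 0.0192; 0.0618 without sheep 131 and 0.110 without sheep 201). The elongation factor subunit EEF1D stood at 440 ± 122 against 848 ± 156 CPM (log2 fold change -0.96, adjusted p = 0.0395; 0.107 without sheep 98 and 0.232 without sheep 201). HYPK, which binds the enzyme that acetylates new proteins at the ribosome, stood at 212 ± 53.3 against 328 ± 28.2 CPM (log2 fold change -0.65, adjusted p = 0.0454; 0.102 to 0.226 without sheep 98, 131 or 201). The count of called ribosomal genes was 15 without sheep 132, 15 with DESeq2 and 20 with no filter on low counts. The 16 nuclear and splicing transcripts used as a sign of RNA quality summed to 12520, 6548, 5664 and 9124 CPM in visceral and 6302, 7417, 6026 and 7397 CPM in perirenal fat, and their part in the shift was not tested. Ribosomal protein genes have many near-identical copies, so their counts are uncertain.

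The same contrast in the 4 testosterone sheep gave fewer calls. Total counts of these sheep ran from 2609183 to 8207718 in visceral and from 4242625 to 8085558 in perirenal libraries. The visceral library of sheep 255 was the lowest, and the part of depth in the number of calls was not tested. Of 12841 genes tested there 11 (0.0857%) were called, 1 higher in visceral (0.00779%) and 10 in perirenal fat (0.0779%), and all 11 are among the 180 of the control sheep. With DESeq2 93 were higher in visceral and 99 in perirenal fat, and with no filter on low counts 44 and 63. NRN1 was the visceral one, at 6.82, 3.63, 12.6 and 21.2 CPM in visceral and 0.485, 0.165, 0.717 and 1.66 CPM in perirenal fat of sheep 48, 185, 233 and 255 (log2 fold change 3.94, SE 0.36, edgeR adjusted p = 0.00971). The perirenal ones were FOXD1, IRX3, HOXA10, HOXC8, HOXC9, HOXC10, HOXD8, LRP1B, ELMOD1 and a locus number. FOXD1 stood at 0.201, 0.375, 0.602 and 0.407 CPM against 21.1, 18.6, 19.2 and 21.3 CPM, as far apart as in the control sheep. HOXC10 again had no read in visceral fat and stood at 14.8, 11.7, 11.3 and 9.83 CPM in perirenal fat.

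Of the 180 genes, 174 were tested in the testosterone sheep and 154 of them (88.5%) had the same direction there, beside 60.5% of the 12575 genes tested in both. HOXA9 stood at 0.401, 0.25, 2.11 and 8.14 CPM in visceral and 53.6, 70.7, 58.1 and 65.2 CPM in perirenal fat (log2 fold change -5.12, edgeR adjusted p = 0.0577), the visceral library of sheep 255 being the highest. The number of calls in testosterone sheep was 1 without sheep 48, 6 without sheep 185, 2 without sheep 233 and 51 without sheep 255.

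**Figure D5:**
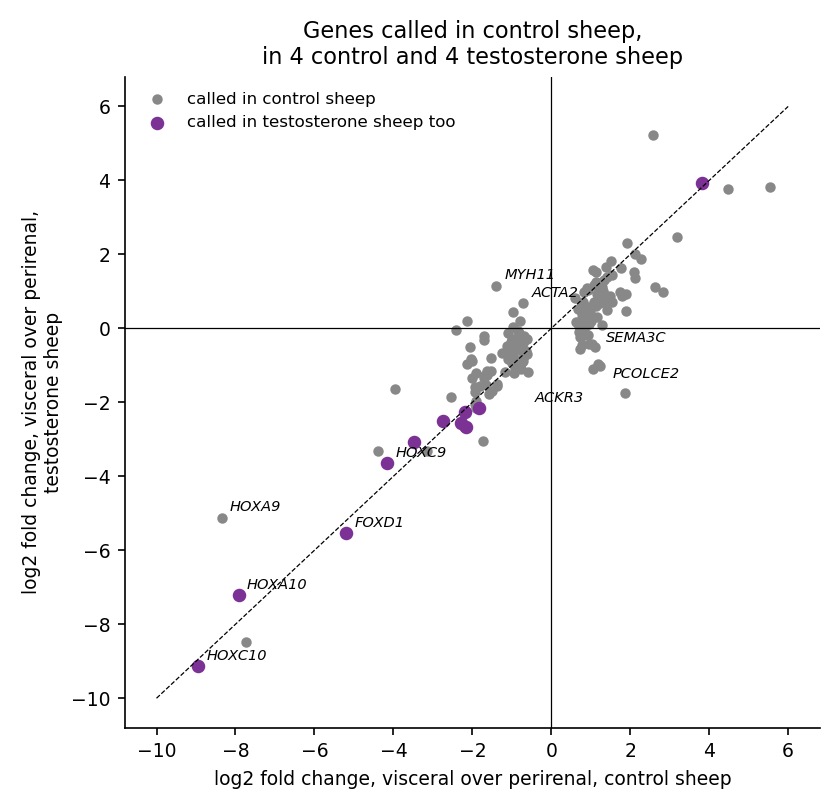
Log2 fold change of visceral over perirenal fat in 4 control sheep (x axis) and 4 testosterone sheep (y axis) for the 174 genes called in the controls and tested in both, with the dashed line marking equal values. FOXD1, HOXC9, HOXA10 and HOXC10 lie close to the line, while MYH11 and ACTA2, and ACKR3, PCOLCE2 and SEMA3C, have opposite signs in the 2 treatments.

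Whether the depot difference itself changed with treatment was tested over the 16 libraries of both treatments, and 0 of 13553 genes (0.00%) passed with edgeR, while 1046 had an unadjusted p under 0.05 and DESeq2 called 30. A gene called in one treatment and not in the other is therefore not shown to differ between them by the main test. PCOLCE2 had 1 of the larger differences of this kind. In the testosterone sheep it stood at 119, 154, 247 and 74.9 CPM in visceral and 114, 436, 360 and 346 CPM in perirenal fat, a log2 fold change of -1.01 against 1.24 in the control sheep. The difference of 2.25 had an unadjusted p of 7.44e-05, an edgeR adjusted p of 0.358 and a DESeq2 adjusted p of 2.94e-05.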

How the data were processed

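The authors' deposited file is a table of raw read counts per gene, not normalized, for 28524 genes and 32 libraries made with the QuantSeq 3' kit, per the labels' protocols from total RNA with an integrity number of at least 7. The submitters' processing notes name STAR, featureCounts 1.6.1, Trimmomatic 0.36, DESeq2 1.24.0 in R 3.6.3, and FastQC 0.11.5 with MultiQC 0.9. The sources used here give no genome build, annotation or strand setting, so counts of overlapping genes and near-identical copies are uncertain. No library pair within a group held identical counts, and among 24 pairs the chi-square of their counts was at least 14.4 per degree of freedom, so each library counted as 1 replicate.

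Tests used edgeR 4.0.16 in R 4.3.3: TMM library sizes, filterByExpr at a minimum count of 10, a robust quasi-likelihood fit with the sheep as a block, and Benjamini-Hochberg adjustment over all genes tested at 0.05. Every adjusted p of a single gene comes from this test unless DESeq2 (1.42.0) is named. The standard error (SE) was taken as the absolute log2 fold change over the root of F. CPM use TMM factors over all 32 libraries, which lay between 0.942 and 1.03 in visceral and 0.9 and 0.991 in perirenal control libraries. The block rests on the animal numbers in the labels, by which both depots came from the same sheep. As a check, the deviations of each sheep's libraries from their group means correlated at 0.272 to 0.461 between the depots in control sheep and at 0.154 to 0.467 in testosterone sheep. In the main test, differences in level between animals were taken up by the block. Each p-value of that test weighs the depot difference against how far this difference varied among 4 animals.

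Genes were named by a rule: among genes with a symbol that were called and did not overlap, the 10 with the largest change in each direction at a mean of 10 CPM or more in the higher depot, and the 6 with the highest level among those changed at least 1.5-fold. From each list up to 4 called members in each direction were added, with textbook checks. TBX18, ISL1, LHX8, TTN, PROX1, MSLN and CALB2 were added after their values were seen. The gene lists, the members and the tests were chosen with earlier results of these data known. List counts and medians are descriptions beside those of all genes, with no test of the list. The scripts were tested on simulated counts. Alternatives were the fit without the block, DESeq2's size factors within edgeR (RLE), no filter, DESeq2, a fit on all 16 control libraries, and leaving out each sheep. Results of some genes are not reported here, and genome sequence was not used.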

Additional observations from a re-analysis of the deposited data

Results flagged for a closer look

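Among the 76 named genes, searched where tested in both treatments, 4 had opposite depot differences in all 4 control and all 4 testosterone sheep. Most named genes were chosen by their calls in control sheep. The share with this pattern over all genes was not counted, so the number cannot be read as unusual. The difference between the treatments was tested but did not pass after adjustment. MYH11, smooth muscle myosin, was lower in visceral fat of every control sheep but stood at 37.7, 49.9, 40.5 and 52.5 CPM in visceral and 30.1, 15, 33.9 and 10.8 CPM in perirenal fat of testosterone sheep 48, 185, 233 and 255. The control minus testosterone log2 fold change was -2.54 (edgeR adjusted p = 0.358). ACTA2, smooth muscle actin, gave -1.39 (edgeR adjusted p = 0.358), with 90.9, 153, 220 and 73.6 CPM against 49.2, 89.3, 185 and 44.9 CPM in testosterone sheep. The difference was 1.36 for SEMA3C (edgeR adjusted p = 0.400) and 2.17 for the chemokine receptor ACKR3 (edgeR adjusted p = 0.539). DESeq2 called all 4, with adjusted p of 2.94e-05 for MYH11, 8.45e-05 for ACTA2, 0.00574 for SEMA3C and 0.0186 for ACKR3.

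In 15 of 152 group values of the named genes, 1 of the 4 libraries lay far from the other 3. The measure would mark about 1 in 20 groups of 4 normally distributed values, and its rate in counts like these was not tested. It always marks a group with reads in only 1 library. In the perirenal library of sheep 131, ACTA2 was at 700 CPM (176 to 252 in the other 3), the calcification inhibitor MGP at 4150 (1350 to 1760), THRSP at 131 (24.5 to 34.4), FAM84A at 7.02 (2.6 to 2.96) and SBSPON at 5.77 CPM (11.4 to 12.5). In the perirenal library of sheep 201, GPC6 was at 84.4 CPM (113 to 117), HHIP at 4.4 (11.4 to 12.8) and HAND2 at 0.6 (0 in the others). In the visceral library of sheep 132, DLK1 was at 4.12 CPM (0.164 to 0.512), PRG4 at 15.7 (3.29 to 5.27) and FOXC1 at 11.2 (14 to 14.5).

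In the other cases, IER2 stood at 95.1 CPM in the visceral library of sheep 131 (62.4 to 66.1). HOXA10 stood at 0.278 CPM in the visceral library of sheep 98, TBX15 at 0.15 CPM in the perirenal library of sheep 98 and UCP1 at 0.129 CPM in that of sheep 132, with 0 in the other 3 libraries of each group.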

How the results depend on the processing

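No named gene changed direction under any alternative, but the medians of 18 of 49 gene lists changed sign under at least 1, among them Wnt genes (0.04, -0.01 without sheep 98) and lipogenic genes (-0.06, 0.04 without sheep 98). The 180 genes called in control sheep became 34 in the fit with no block for the sheep, 731 with no filter on low counts, 306 with DESeq2, 82 in the fit on all 16 control libraries and 92 to 694 when a sheep was left out. With RLE size factors 188 were called. The 156 called without sheep 98 became 16 with no block and 383 with no filter. The 11 of the testosterone sheep became 107 with no filter, 192 with DESeq2 and 1 to 51 without a sheep. For the test of the difference between treatments, which called 0, the counts were 3 with no filter and 30 with DESeq2, and 0 without the block, with RLE size factors and without each sheep. Of 75 named genes tested, 24 kept their side of the threshold under every alternative, among them HOXA3, HOXA6, HOXA9, HOXA10, HOXB5, HOXC6, HOXC8, HOXC9, HOXC10, HOXD8, FOXD1, IRX3, BARX1, NRN1, SLIT2, CCN5, GPC6, PCOLCE2, BMP2, LAMA2 and LRP1B. Calls were lost for 47 of the 75 without the block, 35 in the fit on all control libraries, and 14, 16, 3 and 30 without sheep 98, 131, 132 and 201. The causes were not tested. HAND2 could not be tested without sheep 98 or 132, nor DLK1 without sheep 132. Visceral levels of HOXA9, HOXA10 and HOXC10 are limited by depth, at 0 to 3 reads over 4 libraries.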

Other observations

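The genes in these paragraphs are outside the naming rule and were chosen after their values were seen. ALX1, a homeobox gene of mesenchyme, had no read in the 4 visceral libraries and stood at 2.86, 7.18, 2.96 and 3.6 CPM in perirenal fat, at least 36.5-fold higher against a floor of 3 reads over the group (edgeR adjusted p = 0.000734). EYA4, a transcriptional coactivator, stood at 0.416, 0.329, 0.399 and 0.512 CPM in visceral against 5.71, 9.05, 9.53 and 3.2 CPM in perirenal fat (log2 fold change -3.96, SE 0.42). PLA2G5, a secreted phospholipase, had 2 reads in visceral and 85 in perirenal libraries, a ratio of 43.9 (exact 95% interval for counting error 11.8 to 368). In all 3 genes the groups did not overlap.

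TMEFF2, a transmembrane protein of brain, stood at 8.88, 6.08, 9.05 and 5.98 CPM in visceral and 0.15, 0.312, 0.773 and 0 CPM in perirenal fat (log2 fold change 4.47, SE 0.47, and 5.26 without sheep 132). ANK3, an ankyrin that anchors sodium channels, was higher in perirenal fat at 8.19, 8.54, 21.7 and 29.6 against 35.9, 49.4, 80.6 and 89.8 CPM (log2 fold change -2.01, SE 0.18). The sodium channel SCN3A stood at -2.43 and the leak channel NALCN at -1.38, both called, the former not without sheep 201 (edgeR adjusted p = 0.107).

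HGF, hepatocyte growth factor, stood at 47.2, 27.9, 22.9 and 15.9 CPM against 10.7, 11.1, 15.1 and 7.2 CPM (log2 fold change 1.32, SE 0.24, edgeR adjusted p = 0.0146; 0.0865 without sheep 201). FGF9 stood at 1.29 (adjusted p = 0.0476; 0.168 without sheep 98 and 0.131 without sheep 131). ADA, adenosine deaminase, stood at 89.2, 81.5, 85.2 and 105 CPM in visceral and 36.1, 44.3, 30.1 and 34.8 CPM in perirenal fat, with the groups well apart (log2 fold change 1.33, SE 0.16).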
